A study of Mus musculus with 8 samples.

Results

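The 8 genes described here, Cd200r4, Plxnc1, Cldn1, Penk, Stx3, Mogat2, Pknox2 and Nrep, were picked from the largest rises seen when mouse leukemic cells were given EPZ4777, leaving aside genes that mark neutrophils and macrophages. They are 8 of 18193 genes on the arrays, and 21 of 45037 probe sets carry exactly 1 of their symbols. Where a gene had several probe sets, the set with the highest mean log2 intensity stands for it and the others are given beside it. Cldn1, Penk, Cd200r4, Pknox2, Plxnc1 and Stx3 owe their choice to the cells labelled shSirt1, where they held places 2, 3, 5, 7, 9 and 10 by size among the rises that passed the test. Nrep and Mogat2 owe it to shLUC cells, where they held places 3 and 9. These places leave out symbols that are only a clone, locus or accession number, 1 of which (BC018473) stood among the largest in both arms with a rise of 3.00 log2 in cells labelled shSirt1 and 3.08 log2 in shLUC cells. In those comparisons the values are a description, and a test is given for each gene in the arm that did not place it on the list. The results of both arms were known when the list was drawn up, and for each gene both arms share the same estimate of spread. These tests are therefore no independent evidence.

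The study measured total RNA of mouse cells transformed by MLL-AF9, a fusion oncoprotein of acute leukemia, on 8 Affymetrix arrays in 4 groups of 2. EPZ4777 is a small molecule that inhibits DOT1L, the enzyme that methylates lysine 79 of histone H3. The cells carried a short hairpin RNA labelled either shSirt1, against the deacetylase Sirt1, or shLUC. The question posed by the design is how expression changes with the drug and with RNA interference. The 4 groups were cells labelled shSirt1 after 21 days in 3 µM EPZ4777, the same cells in DMSO, shLUC cells after 6 days in 3 µM EPZ4777, and shLUC cells in DMSO. The arrays in DMSO are labelled as controls with no time. All cells grew in medium with serum, SCF, IL-3 and IL-6, so every group carried the fusion and received the same cytokines. Each title also holds a code that joins an EPZ4777 array to a DMSO array, A1 and A5 for shSirt1 and A4 and D11 for shLUC. The labels say neither what the codes mean nor that the arrays come from separate cultures, so a p-value here measures the spread between arrays, part or all of which may be technical. Hairpin and time in drug changed together, so their parts in any difference between the 2 EPZ4777 groups cannot be told apart.

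The protein products of the 8 genes have different roles. Cd200r4 belongs to the CD200 receptor family of myeloid cell surfaces, whose activating members signal through the adaptor Tyrobp, and Plxnc1 encodes a plexin, a receptor for the semaphorin Sema7a. Cldn1 encodes claudin 1, which seals tight junctions between epithelial cells, and Penk encodes proenkephalin, the precursor of the enkephalin opioid peptides. Stx3 is a syntaxin, a membrane SNARE that drives vesicle fusion with the plasma membrane, and Mogat2 is an acyltransferase that makes diacylglycerol from monoacylglycerol, best known from fat absorption in the intestine. Pknox2 is a homeodomain factor of the TALE class, which also holds Meis1 and Pknox1, and Nrep encodes a small protein known from regenerating neurons and from myofibroblasts.

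Sirt1, the target of the hairpin, was at 8.85 (A1) and 9.73 (A5) log2 intensity in cells labelled shSirt1 in EPZ4777 and at 8.70 (A1) and 9.54 (A5) in the same cells in DMSO. In shLUC cells it was at 9.44 and 9.83 in EPZ4777 and at 9.46 and 9.58 in DMSO. Code A1 thus held 57.3% of the shLUC mean in EPZ4777 and 56.5% in DMSO, while code A5 held 105% and 102%, so Sirt1 RNA was below that of shLUC cells on the A1 arrays and not on the A5 arrays. The DMSO array of A1 stood apart in RNA of stroma as well: the collagen gene Col3a1 was at 6.92 there, against 2.84 to 3.13 on the other 7 arrays. Markers of the leukemic myeloid cell (Ptprc, Kit, Itgam, Cd33, Spi1, Cebpa, Mpo, Hoxa9 and Meis1) were all measured, and none of the 9 lay under the lower quartile on every array. The median log2 intensity of an array was between 5.21 and 5.27 and its lower quartile between 3.75 and 3.84. No depth applies to arrays, and the number of arrays limits the precision. In RNA from a whole culture, fewer cells of a type and less RNA per cell cannot be told apart.

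Upstream sequences were available for 4 of the 8 genes, and they are shown as a description. All 8 were chosen for a rise with EPZ4777, and shared control was not tested. Each is the stretch of 250 bases before the start of the gene in RefSeq on GRCm38.p6, given 5′ to 3′ on the strand of the gene. Capitals mark matches, on either strand, to 1 of 7 short words: GAGGAAG of the ETS factor PU.1, TTGCGCAA of the C/EBP factors, TGACTCA of the factor AP-1, TGACAG of the MEIS and PKNOX factors, TATAAA of core promoters, the Sp1 word GGGCGG and the E-box CACGTG. Cd200r4 lies on the plus strand at chr16:44820478-44820727, Plxnc1 on the minus strand at chr10:94944846-94945095, Cldn1 on the minus strand at chr16:26371840-26372089 and Stx3 on the minus strand at chr19:11819404-11819653.
Cd200r4: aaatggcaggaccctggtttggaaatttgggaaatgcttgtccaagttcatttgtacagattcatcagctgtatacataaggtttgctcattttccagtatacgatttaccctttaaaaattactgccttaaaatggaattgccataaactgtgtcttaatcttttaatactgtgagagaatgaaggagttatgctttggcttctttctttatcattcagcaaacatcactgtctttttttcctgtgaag
Plxnc1: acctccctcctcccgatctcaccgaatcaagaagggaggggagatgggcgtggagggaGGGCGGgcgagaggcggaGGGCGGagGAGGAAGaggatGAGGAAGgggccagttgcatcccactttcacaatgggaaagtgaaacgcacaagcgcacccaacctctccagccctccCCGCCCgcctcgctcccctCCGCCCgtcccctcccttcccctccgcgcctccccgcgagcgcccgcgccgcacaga
Cldn1: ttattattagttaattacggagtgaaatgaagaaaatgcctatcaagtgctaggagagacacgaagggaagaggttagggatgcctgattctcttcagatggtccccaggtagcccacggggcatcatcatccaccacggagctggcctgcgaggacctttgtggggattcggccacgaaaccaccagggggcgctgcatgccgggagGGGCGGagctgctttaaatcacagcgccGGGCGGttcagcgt
Stx3: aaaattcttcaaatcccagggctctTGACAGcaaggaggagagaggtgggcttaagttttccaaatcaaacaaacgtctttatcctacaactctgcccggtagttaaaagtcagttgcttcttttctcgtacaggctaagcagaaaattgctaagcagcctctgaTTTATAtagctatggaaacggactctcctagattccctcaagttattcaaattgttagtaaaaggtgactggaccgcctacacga

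The 4 stretches differed in base composition. Plxnc1 was 68.8% G and C with 22 CpG dinucleotides, Cldn1 55.6% with 14, Stx3 42% with 6 and Cd200r4 35.2% with 1. Among 32851 upstream windows of the same length, their GC content lay at percentiles 89.6, 61.3, 16.9 and 5.41. The Sp1 word GGGCGG occurred at 4 places before Plxnc1 and at 2 places before Cldn1, against at least 1 match in 32.7% of all windows. The PU.1 word GAGGAAG stood at positions -166 and -154 from the start of Plxnc1, and 10.6% of all windows held it. Stx3 had TGACAG at position -225 (15.9% of windows) and TATAAA on the opposite strand at -85 (12.4%). No word was found in the window of Cd200r4. TTGCGCAA, TGACTCA and CACGTG were in none of the 4, and in 0.164%, 4.46% and 6.02% of all windows. The words do not overlap each other in letters, and a match describes the letters only.

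All 8 genes stood higher in both EPZ4777 arrays than in both DMSO arrays of the same hairpin, as did 26% of all genes in cells labelled shSirt1 and 24.2% in shLUC cells. Of the 2 genes tested in cells labelled shSirt1, Mogat2 rose and Nrep did not pass the threshold, an adjusted p under 0.05 with limma, at which 0.214% of all genes were called higher there and 0.181% lower. Of the 6 genes tested in shLUC cells, 6 rose, where 1.62% of all genes were called higher and 2.36% lower. These 6 differences were between 1.99 and 2.95 log2 with a median of 2.56, against a median of -0.0025 over all genes, and their adjusted p-values were between 0.00511 and 0.0490. With the code as a block 2 of 2 and 6 of 6 passed, against 1.31% of all genes called higher in cells labelled shSirt1 and 3.63% in shLUC cells. With an array left out, which leaves 1 array in a group, fewer of the tested genes passed in some settings of each arm. In shLUC cells the loss was largest without either DMSO array (A4 or D11) and without the D11 array in EPZ4777. The number of all genes called higher varied as well, down to none in some such settings of each arm, as given below.

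**Figure D1:**
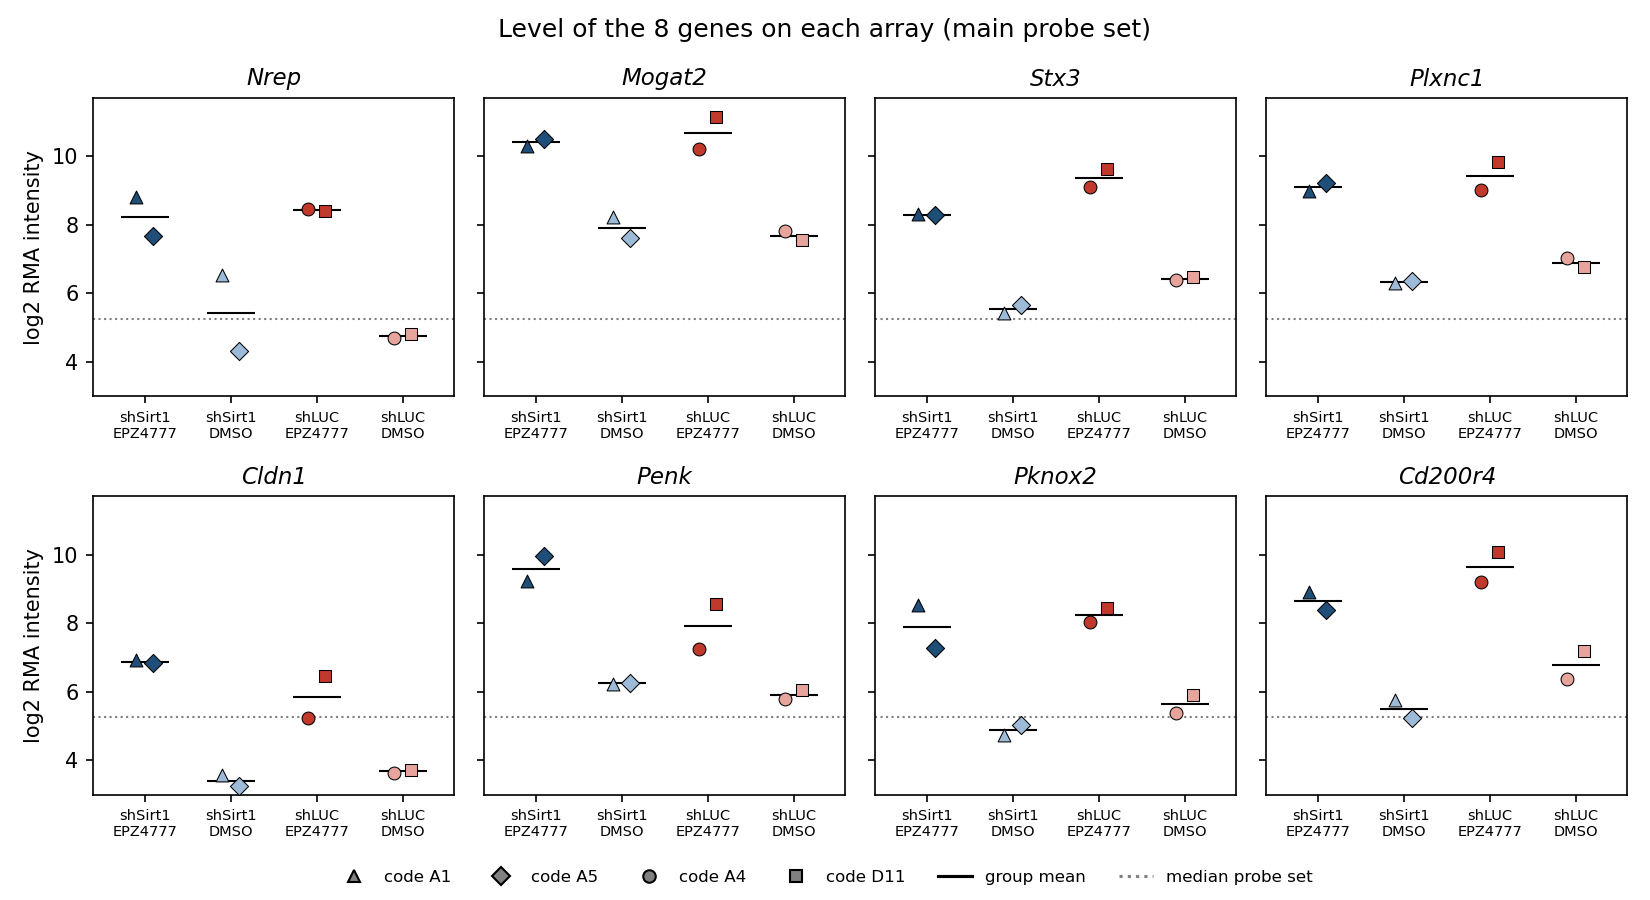
Log2 intensity of the main probe set of each of the 8 genes on each of the 8 arrays. Each point is 1 array, marked by its code, with EPZ4777 left of DMSO for each hairpin, a bar at the mean of 2 arrays and a dotted line at the median probe set. In every panel both EPZ4777 arrays lie above both DMSO arrays of the same hairpin, and the 2 DMSO arrays of cells labelled shSirt1 are far apart for Nrep, at 6.53 and 4.32.

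Among the surface proteins, Cd200r4 was at 8.91 (A1) and 8.38 (A5) log2 intensity in cells labelled shSirt1 in EPZ4777 and at 5.77 (A1) and 5.23 (A5) in DMSO. In shLUC cells it was at 9.19 (A4) and 10.06 (D11) in EPZ4777 and at 6.38 (A4) and 7.18 (D11) in DMSO. The 4 groups did not overlap, and at either agent the shLUC cells were the higher. Cd200r4 was 8.86-fold higher with EPZ4777, by 3.15 ± 0.39 log2, in cells labelled shSirt1, and it rose 7.20-fold, by 2.85 ± 0.39 log2, in shLUC cells (SE, n = 2 arrays per group, limma adjusted p = 0.0290). The difference within a code was alike on all 4, between 2.81 and 3.15 log2. Cells labelled shSirt1 lay below shLUC cells, with differences of -0.98 log2 in EPZ4777 and -1.28 log2 in DMSO, both a description.

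Cd200r4 has near copies on chromosome 16, and hybridisation of their RNA to its only probe set was not tested. Its neighbour Cd200r1, the inhibitory receptor for CD200, was at 7.51 and 7.52 in cells labelled shSirt1 in EPZ4777 and at 6.27 and 6.67 in DMSO. It was at 8.10 and 8.64 in shLUC cells in EPZ4777 and at 7.12 and 7.36 in DMSO. The difference of Cd200r1 was 1.04 log2 in cells labelled shSirt1 and did not pass (limma adjusted p = 0.107, and 0.0397 with the code as a block), and it rose by 1.13 ± 0.21 log2 in shLUC cells (SE, adjusted p = 0.0411). Cd200r3, on the other side of Cd200r4, stayed between 2.89 and 3.29 on all 8 arrays, with differences of -0.036 log2 in cells labelled shSirt1 and -0.18 log2 in shLUC cells. The adaptor Tyrobp differed by 0.68 log2 in cells labelled shSirt1 and 0.48 log2 in shLUC cells, and neither passed (limma adjusted p = 0.314 and 0.402, and 0.0490 and 0.0578 with the code as a block). Of the 4 other measured genes of the CD200 receptor list, none passed in cells labelled shSirt1, where 2 rose with the code as a block, and 1 rose in shLUC cells.

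Plxnc1 was at 8.98 (A1) and 9.23 (A5) in cells labelled shSirt1 in EPZ4777 and at 6.31 (A1) and 6.36 (A5) in DMSO. The shLUC cells had it at 9.02 (A4) and 9.83 (D11) in EPZ4777 and at 7.03 (A4) and 6.76 (D11) in DMSO. The EPZ4777 groups of the 2 hairpins overlapped, and both DMSO groups lay below them without overlapping each other. Plxnc1 was 2.77 ± 0.25 log2 higher with EPZ4777, 6.83-fold, in cells labelled shSirt1, and it rose by 2.53 ± 0.25 log2, 5.79-fold, in shLUC cells (SE, n = 2 arrays per group, limma adjusted p = 0.0244). All 6 of its probe sets gave positive differences in both arms. The set that moved most in shLUC cells did so by 3.19 log2, with 6.34 and 7.77 in EPZ4777 and 3.81 and 3.91 in DMSO. The dimmest set moved least, by 0.038 log2 in cells labelled shSirt1 and 0.15 log2 in shLUC cells, and it read under 3 log2 on all arrays, below their lower quartile.

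Of 30 other plexins, semaphorins and neuropilins, none passed in cells labelled shSirt1, and 1 rose and 1 fell in shLUC cells. With the code as a block 1 fell in cells labelled shSirt1, and 3 rose and 1 fell in shLUC cells. Sema4a, a semaphorin of immune cells, rose there by 0.93 log2 (limma adjusted p = 0.0354) and the integrin chain Itgb1, through which Sema7a also signals, fell by 0.61 log2 (adjusted p = 0.0421). Sema7a, the ligand of plexin C1, differed by 0.38 log2 in cells labelled shSirt1 and 0.10 log2 in shLUC cells, and neither passed. The median over the 30 genes was 0.055 log2 in cells labelled shSirt1 and 0.096 log2 in shLUC cells, against 0.011 and -0.0025 over all genes.

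Cldn1 was at 6.92 (A1) and 6.83 (A5) in cells labelled shSirt1 in EPZ4777 and at 3.56 (A1) and 3.24 (A5) in DMSO. In shLUC cells it was at 5.23 (A4) and 6.45 (D11) in EPZ4777 and at 3.64 (A4) and 3.72 (D11) in DMSO. The 4 DMSO values lay below the lower quartile of the arrays, and no detection call was used here to tell them from background, and the EPZ4777 values were highest in cells labelled shSirt1, with no overlap between groups. Cldn1 was 3.47 ± 0.35 log2 higher with EPZ4777, 11.1-fold, in cells labelled shSirt1, and it rose by 2.16 ± 0.35 log2, 4.46-fold, in shLUC cells (SE, n = 2 arrays per group, limma adjusted p = 0.0346). Cells labelled shSirt1 minus shLUC cells gave 1.03 log2 in EPZ4777 and -0.28 log2 in DMSO, a description of groups that in EPZ4777 also differ in time.

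The 4 probe sets of Cldn1 disagreed. Next to the main set, 1 set differed by 1.49 log2 in cells labelled shSirt1 and by 0.44 log2 in shLUC cells. The other 2 sets read under 3 log2 on all 8 arrays and gave 0.30 and -0.0087 log2 in cells labelled shSirt1 and 0.18 and -0.081 log2 in shLUC cells. With the mean of its 4 sets in place of the main one, Cldn1 differed by 1.31 log2 in cells labelled shSirt1 and by 0.67 log2 in shLUC cells (limma adjusted p = 0.0684).

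Of 28 other claudins and tight junction genes, 1 rose in each arm, and it was Cldn15 in both. This claudin, known from intestinal epithelium, rose by 0.86 log2 in cells labelled shSirt1 (limma adjusted p = 0.0399), where both EPZ4777 arrays lay above both DMSO arrays, which read 7.14 and 7.23. It rose by 1.14 log2 in shLUC cells (limma adjusted p = 0.0224), with 8.32 and 8.46 in EPZ4777 and 7.22 and 7.27 in DMSO. The list's median differences were 0.10 log2 in cells labelled shSirt1 and 0.089 log2 in shLUC cells. Of 8 epithelial markers none passed in either arm.

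Penk was at 9.23 (A1) and 9.95 (A5) in cells labelled shSirt1 in EPZ4777 and at 6.23 (A1) and 6.25 (A5) in DMSO. The shLUC cells showed 7.26 (A4) and 8.56 (D11) in EPZ4777 and 5.78 (A4) and 6.05 (D11) in DMSO. The groups did not overlap, and the cells labelled shSirt1 in EPZ4777 were the highest. Penk was 3.35 ± 0.41 log2 higher with EPZ4777, 10.2-fold, in cells labelled shSirt1, and it rose by 1.99 ± 0.41 log2, 3.98-fold, in shLUC cells (SE, n = 2 arrays per group, limma adjusted p = 0.0490). That adjusted p lay just inside the threshold, and between 0.0324 and 0.263 in limma fits with arrays left out. Cells labelled shSirt1 minus shLUC cells gave 1.68 log2 in EPZ4777 and 0.33 log2 in DMSO. The drug's difference was larger in cells labelled shSirt1 by 1.36 log2 for Penk and by 1.32 log2 for Cldn1. For the other 6 genes the same measure lay between -0.84 log2 (Nrep) and 0.42 log2 (Pknox2). These values share arrays with the choice of the genes and are a description.

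The other opioid precursors did not follow Penk. Pdyn, the dynorphin precursor, differed by -0.22 log2 in cells labelled shSirt1 and -0.10 log2 in shLUC cells, and Pomc by 0.14 and 0.032 log2. Of 14 other genes for opioid peptides, their processing and their receptors, none passed in cells labelled shSirt1 and 1 rose in shLUC cells. It was Anpep, an aminopeptidase of myeloid cell surfaces that cleaves enkephalins, at 0.74 log2 (limma adjusted p = 0.0482, and 0.0503 with the code as a block). Anpep was dim there, at 3.88 and 3.67 in EPZ4777 and 2.89 and 3.19 in DMSO, near or below the lower quartile of the arrays. Of 9 neural markers none passed in either arm.

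Stx3 was at 8.31 (A1) and 8.28 (A5) in cells labelled shSirt1 in EPZ4777 and at 5.44 (A1) and 5.68 (A5) in DMSO. The shLUC cells held it at 9.11 (A4) and 9.64 (D11) in EPZ4777 and at 6.38 (A4) and 6.47 (D11) in DMSO. The groups did not overlap, and shLUC cells were higher at either agent. Stx3 was 2.73 ± 0.18 log2 higher with EPZ4777, 6.65-fold, in cells labelled shSirt1, and it rose by 2.95 ± 0.18 log2, 7.73-fold, in shLUC cells (SE, n = 2 arrays per group, limma adjusted p = 0.00511). The difference within a code was between 2.60 and 3.17 log2. Its 4 probe sets were all positive in both arms, between 0.10 and 2.73 log2 in cells labelled shSirt1 and between 0.52 and 2.95 log2 in shLUC cells, and the weakest read under 3.7 log2 on all arrays.

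Of 28 other SNARE proteins and regulators, none passed in cells labelled shSirt1 and 1 rose in shLUC cells. Stxbp5, which binds syntaxins and holds back fusion, rose there by 0.72 log2 (limma adjusted p = 0.0464). Stx11, a syntaxin of cytotoxic and myeloid cells, differed by 1.15 log2 in cells labelled shSirt1 (adjusted p = 0.228) and by 1.34 log2 in shLUC cells (adjusted p = 0.0884, and 0.0466 with the code as a block). Stx4a, a plasma membrane syntaxin, differed by -0.11 log2 in cells labelled shSirt1 and 0.11 log2 in shLUC cells. With the code as a block 1 gene of the list rose and 1 fell in cells labelled shSirt1, and 2 rose in shLUC cells. Vamp5 differed by 2.27 log2 in cells labelled shSirt1 (limma adjusted p = 0.148, and 0.0362 with the block). In shLUC cells it differed by 1.44 log2 (adjusted p = 0.186, and 0.0518 with the block). Vamp4 differed by -0.66 log2 in cells labelled shSirt1 (adjusted p = 0.0706, and 0.0457 with the block).

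Mogat2 was at 10.31 (A1) and 10.50 (A5) in cells labelled shSirt1 in EPZ4777 and at 8.22 (A1) and 7.62 (A5) in DMSO. The shLUC arrays read 10.21 (A4) and 11.14 (D11) in EPZ4777 and 7.81 (A4) and 7.56 (D11) in DMSO. The hairpins overlapped at either agent, and EPZ4777 and DMSO arrays lay apart. Mogat2 rose by 2.48 ± 0.32 log2, 5.59-fold, in cells labelled shSirt1 (SE, n = 2 arrays per group, limma adjusted p = 0.0408) and was 2.99 ± 0.32 log2 higher with EPZ4777, 7.94-fold, in shLUC cells. The call was not stable, and missed the threshold in 8 of 10 settings with arrays left out. The difference in these 10 settings lay between 2.09 and 2.88 log2. Some left out an array of shLUC cells, which enters this comparison only through the shared spread. Mogat2 has 1 probe set.

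Mogat1, which makes the same product, read between 3.30 and 3.98 log2 on all 8 arrays and differed by -0.031 log2 in cells labelled shSirt1 and -0.12 log2 in shLUC cells. Of 27 other genes of acylglycerol synthesis and lipid storage, none passed in cells labelled shSirt1 and 1 rose in shLUC cells. It was Mgll, the lipase that takes the last fatty acid from monoacylglycerol, the substrate of Mogat2. With the code as a block 2 genes of the list fell in cells labelled shSirt1, and 1 rose and 1 fell in shLUC cells. Mgll was at 8.97 and 9.15 in cells labelled shSirt1 in EPZ4777 and at 8.29 and 6.96 in DMSO, and its difference of 1.44 log2 did not pass (limma adjusted p = 0.231). In shLUC cells it was at 8.69 and 9.66 in EPZ4777 and at 6.64 and 7.12 in DMSO, a rise of 2.29 log2 (limma adjusted p = 0.0474). Dgat2, which adds the last fatty acid and lies next to Mogat2 on chromosome 7, differed by 1.14 log2 in cells labelled shSirt1 (adjusted p = 0.423) and 1.63 log2 in shLUC cells (adjusted p = 0.191). Fabp4, a lipid carrier of adipocytes and macrophages, was at 3.88 (A1) and 6.33 (A5) in cells labelled shSirt1 in EPZ4777 and at 13.18 (A1) and 4.88 (A5) in DMSO. Its difference of -3.92 ± 2.33 log2 there (SE, n = 2 arrays per group) was set by the DMSO array of A1, and within A5 the EPZ4777 array was the higher.

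Pknox2 was at 8.53 (A1) and 7.26 (A5) in cells labelled shSirt1 in EPZ4777 and at 4.73 (A1) and 5.04 (A5) in DMSO. Values in shLUC cells were 8.03 (A4) and 8.43 (D11) in EPZ4777 and 5.37 (A4) and 5.90 (D11) in DMSO. The EPZ4777 groups overlapped, with A1 above A5, and the DMSO arrays of cells labelled shSirt1 lay below those of shLUC cells. Pknox2 was 3.01 ± 0.40 log2 higher with EPZ4777, 8.08-fold, in cells labelled shSirt1, and it rose by 2.59 ± 0.40 log2, 6.03-fold, in shLUC cells (SE, n = 2 arrays per group, limma adjusted p = 0.0326). Within a code the difference was 3.81 log2 for A1 and between 2.22 and 2.66 log2 for the other 3. Its other probe set read between 4.60 and 5.14 on all arrays and differed by 0.097 log2 in cells labelled shSirt1 and 0.30 log2 in shLUC cells, so that the large rise was seen by 1 of its 2 sets.

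The other TALE homeobox genes did not rise with Pknox2. Meis1, a target and cofactor in MLL fusion leukemia, was at 5.26 and 3.93 in cells labelled shSirt1 in EPZ4777 and at 7.64 and 6.91 in DMSO, a difference of -2.68 log2 that did not pass (limma adjusted p = 0.0694, and 0.0146 with the code as a block). In shLUC cells it was at 4.01 and 3.62 in EPZ4777 and at 7.62 and 7.93 in DMSO, and it fell by 3.96 log2 (limma adjusted p = 0.0244). Pknox1, the widely expressed paralog of Pknox2, differed by -0.30 log2 in cells labelled shSirt1 (adjusted p = 0.412) and by -0.72 log2 in shLUC cells (adjusted p = 0.0567, and 0.0436 with the code as a block). Of the 10 other measured TALE genes none passed in cells labelled shSirt1, where 3 had positive differences, and none rose and 1 fell in shLUC cells, where 2 had positive differences.

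**Figure D2:**
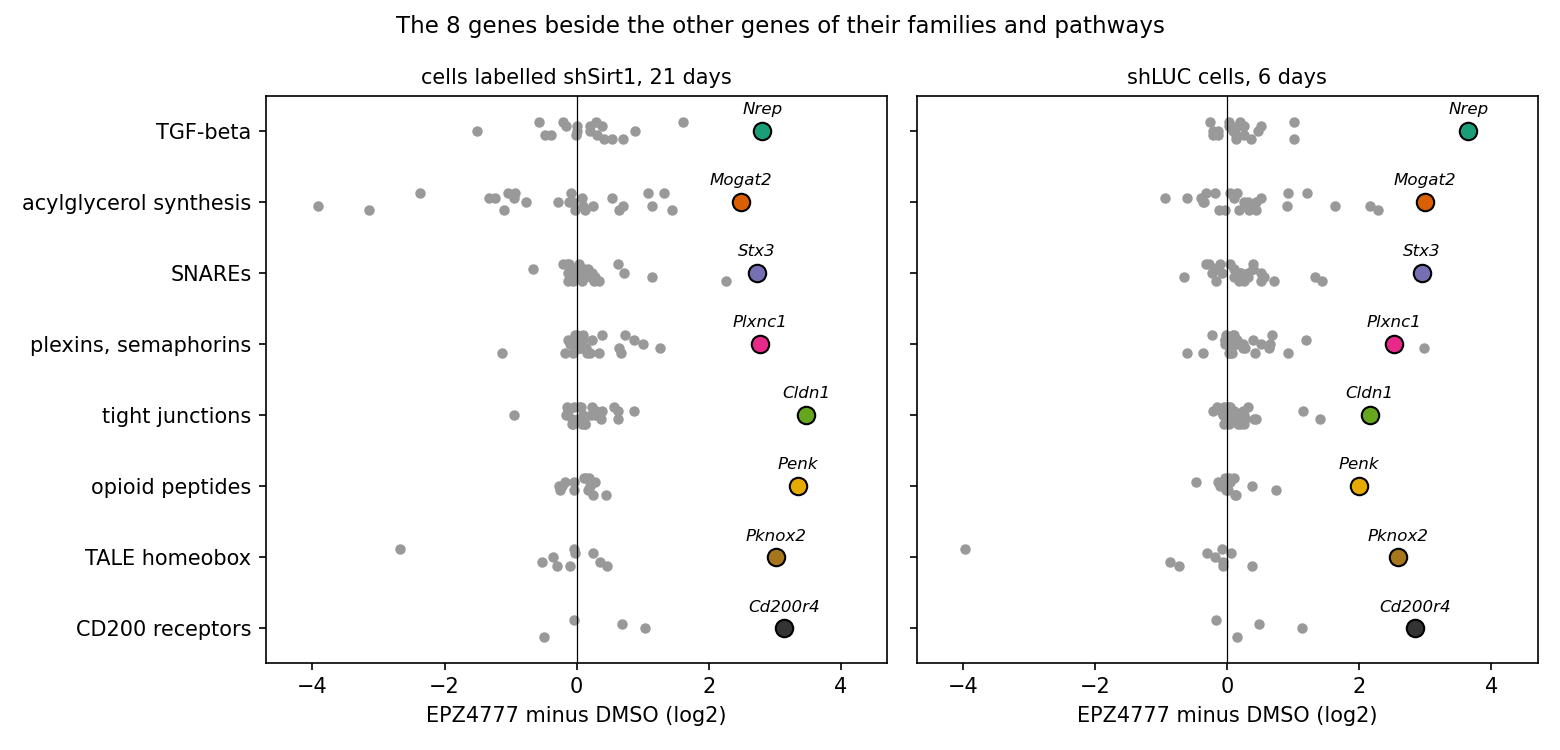
Log2 difference of EPZ4777 minus DMSO for the genes of each list that holds 1 of the 8, in each hairpin arm. Each small point is 1 gene of the list and the large marker is the gene of the 8. In cells labelled shSirt1 Fabp4, a lipid carrier whose difference did not pass, is lowest at -3.92 log2, a value set by the DMSO array of A1, and in shLUC cells Meis1 is lowest at -3.96 log2, and Nrp1, a semaphorin co-receptor at 2.98 log2 that did not pass, lies above Plxnc1 there.

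Nrep was at 8.82 (A1) and 7.66 (A5) in cells labelled shSirt1 in EPZ4777 and at 6.53 (A1) and 4.32 (A5) in DMSO. In shLUC cells it was at 8.45 (A4) and 8.40 (D11) in EPZ4777 and at 4.71 (A4) and 4.83 (D11) in DMSO. A1 was above A5 in EPZ4777 and in DMSO, while both pairs of shLUC arrays lay close together. Nrep differed by 2.81 ± 0.67 log2, 7.03-fold, in cells labelled shSirt1 (SE, n = 2 arrays per group, limma adjusted p = 0.145) and did not pass, although both EPZ4777 arrays lay above both DMSO arrays. It was 3.65 ± 0.67 log2 higher with EPZ4777, 12.6-fold, in shLUC cells. With the code as a block the adjusted p in cells labelled shSirt1 was 0.0169. On the DMSO array of A1, the highest of the 4 DMSO arrays for Nrep, Fabp4, Col3a1 and the stromal proteoglycan gene Dcn stood out too, Dcn at 7.27 against 4.48 to 4.79 on the other 7 arrays, and their part in the level of Nrep was not tested. Without that array the difference was 3.92 log2, and without the DMSO array of A5 it was 1.71 log2. Without both arrays of A1 it was 3.35 log2, and without both arrays of A5 it was 2.28 log2. These fits leave a group of cells labelled shSirt1 without a replicate, so only the differences are given.

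The other probe set of Nrep showed the same pattern, with 8.38 (A1) and 7.22 (A5) in cells labelled shSirt1 in EPZ4777 and 6.33 (A1) and 5.01 (A5) in DMSO. It differed by 2.12 log2 in cells labelled shSirt1 and by 2.73 log2 in shLUC cells. Of 19 TGF-beta ligands, receptors and latency proteins, listed because the Nrep protein has been tied to TGF-beta production, none passed in either arm. With the code as a block 1 of them fell in cells labelled shSirt1. Tgfb1 itself differed by 0.00082 log2 in cells labelled shSirt1 and -0.14 log2 in shLUC cells.

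**Figure D3:**
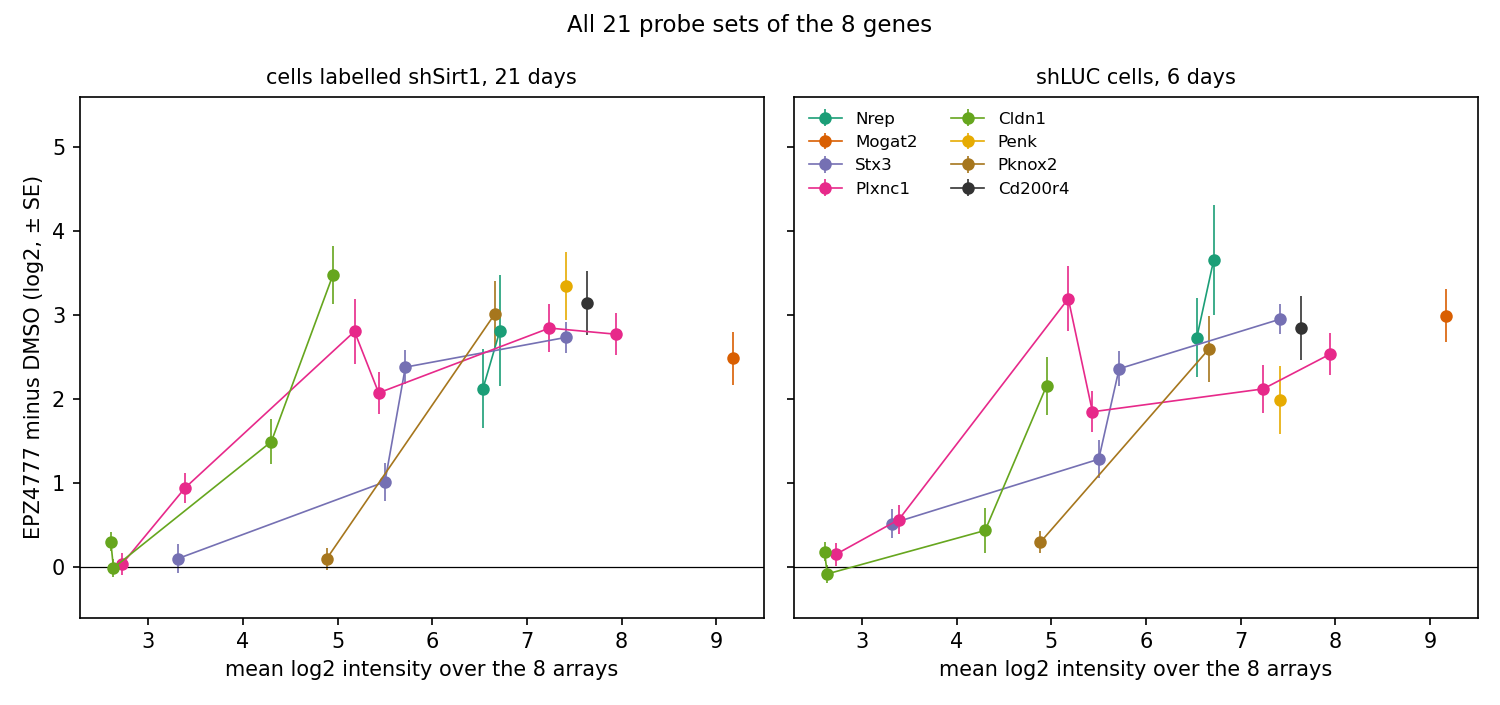
Log2 difference of EPZ4777 minus DMSO for each of the 21 probe sets of the 8 genes against the mean log2 intensity of the set, in each hairpin arm. Bars are standard errors of the fit and lines join the sets of a gene; the sets near a difference of 0 are dim sets of Cldn1, Plxnc1 and Stx3 and the other set of Pknox2.

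Seen side by side, the 2 drug comparisons gave the genes different orders of size. Each gene was chosen for a large rise in an arm, which favours a high place in that arm, so the orders are a description only. Cldn1, Penk and Cd200r4 led in cells labelled shSirt1 after 21 days, with 3.47, 3.35 and 3.15 log2, and the place of Cldn1 rests on DMSO values below the lower quartile. Mogat2 was last there with 2.48 log2. Nrep, Mogat2 and Stx3 led in shLUC cells after 6 days, with 3.65, 2.99 and 2.95 log2, and Penk was last with 1.99 log2. No gene of the whole table passed the test of the difference between the 2 arms in limma (0 of 18193), where 1221 had an unadjusted p under 0.05 and 3 passed with the code as a block. The edge of the choice, counted without that symbol as above, lay close to these values: in cells labelled shSirt1 Stx3 at 2.73 log2 held place 10, ahead of Tcf24 at 2.64 log2 and Mogat2 at 2.48 log2, and in shLUC cells Maf at 2.97 log2 held place 10 and Stx3 at 2.95 log2 place 11. Pla2g7, Fstl1, Smad1, Inhba and S100a6 rose by as much in one arm or both and are not among the 8.

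**Figure D4:**
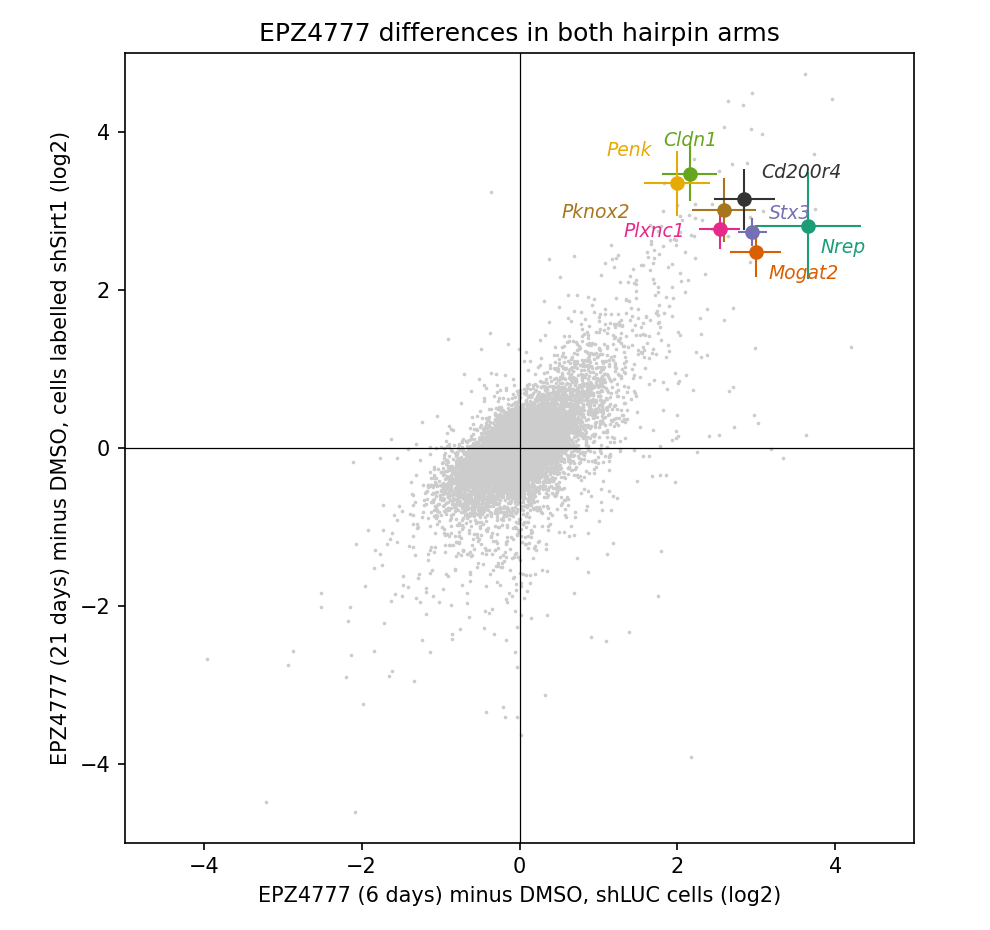
Log2 difference of EPZ4777 minus DMSO in cells labelled shSirt1 (vertical) against the difference in shLUC cells (horizontal) for the 8 genes, named and with bars of 1 standard error, over all 18193 genes in grey. Cldn1 and Penk lie at 3.47 and 3.35 log2 in cells labelled shSirt1 and at 2.16 and 1.99 log2 in shLUC cells, and Nrep at 2.81 log2 in cells labelled shSirt1 and 3.65 log2 in shLUC cells.

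All 8 were chosen for a rise with the drug, so correlations over the 8 arrays describe that choice. The 28 pairs of the genes had Pearson correlations between 0.725 (Penk with Cd200r4) and 0.979 (Stx3 with Cd200r4), with a median of 0.906, and all share the same 8 arrays. Likeness to other genes was measured the same way among 2881 genes with a range of at least 1 log2. The closest to each were Hvcn1, a proton channel of phagocytes, for Plxnc1 (0.996), Sh3d19 for Penk (0.994), Crebl2 for Mogat2 (0.994) and Inhba, the activin A subunit, for Cldn1 (0.991). For the other 4 they were Hpse, the enzyme heparanase, for Nrep (0.989), Cldn15 for Stx3 (0.986), Junos for Cd200r4 (0.980) and Tnnt1, a troponin, for Pknox2 (0.979).

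Marker genes of mature myeloid cells stood higher on the same arrays, and their part in the values of the 8 genes was not tested. All 17 measured neutrophil maturation genes had positive differences in both arms, with medians of 2.58 log2 in cells labelled shSirt1 and 2.03 log2 in shLUC cells. Of these, 1 rose in cells labelled shSirt1 (Olfm4) and 4 in shLUC cells (Lcn2, Olfm4, Cd177 and Fcnb), and with the code as a block 8 and 7 did. Their summed intensity was 84252 to 146756 in EPZ4777 against 13935 to 38658 in DMSO in cells labelled shSirt1, and 94264 to 144184 in EPZ4777 against 36544 to 46956 in DMSO in shLUC cells. Of 19 monocyte and macrophage genes none rose and 2 fell in cells labelled shSirt1, and 7 rose and 2 fell in shLUC cells. Their summed intensity was 1919 to 2438 in EPZ4777 against 2617 to 4595 in DMSO in cells labelled shSirt1, while in shLUC cells it was 7664 to 10076 in EPZ4777 against 6811 to 7563 in DMSO. Of 12 mast cell and basophil markers, 5 eosinophil, 11 dendritic, 6 B cell, 8 T and NK cell and 6 erythroid markers, none passed in either arm. Some summed intensities did not overlap between EPZ4777 and DMSO. Such separation is common with 2 arrays per group. Among all single genes, 26% in cells labelled shSirt1 and 24.2% in shLUC cells had both EPZ4777 arrays above both DMSO arrays. Mast cell and basophil markers summed to 1771 to 1984 in EPZ4777 against 1039 to 1136 in DMSO in cells labelled shSirt1, and to 1216 to 1470 in EPZ4777 against 978 to 1047 in DMSO in shLUC cells. This list also holds Kit, named above as a marker of the leukemic cell. Kit read 9.71 and 9.23 log2 in EPZ4777 and 8.79 and 9.18 log2 in DMSO in cells labelled shSirt1. In these cells 8 of the 12 genes had positive differences, among them Hdc at 1.59 log2 and Mcpt8 at 0.65 log2. The median difference of the list was 0.088 log2 in cells labelled shSirt1 and 0.23 log2 in shLUC cells. Megakaryocyte markers summed to 549 to 628 in EPZ4777 against 394 to 471 in DMSO in cells labelled shSirt1, and to 1014 to 1211 in EPZ4777 against 385 to 410 in DMSO in shLUC cells. Neural markers summed to 487 to 606 in EPZ4777 against 446 to 465 in DMSO in cells labelled shSirt1, and to 585 to 685 in EPZ4777 against 474 to 482 in DMSO in shLUC cells. Erythroid markers did not overlap in cells labelled shSirt1, at 7828 to 8251 in EPZ4777 against 6127 to 6686 in DMSO, and stromal markers did not in shLUC cells, at 961 to 1026 in EPZ4777 against 655 to 672 in DMSO. In cells labelled shSirt1 the T and NK cell sum was higher with EPZ4777 and the dendritic sum lower, and in shLUC cells the B cell sum was lower, each without overlap. Of 8 megakaryocyte markers Pf4 rose in shLUC cells, and of 12 stromal markers Acta2 rose in both arms, by 1.05 log2 in cells labelled shSirt1 and 0.79 log2 in shLUC cells.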

How the data were processed

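Total RNA of mouse MLL-AF9 leukemic cells was measured on 8 Affymetrix arrays, 2 in each of 4 groups set by hairpin, agent and time in the titles. The authors deposited linear intensity values per probe set, and the submitters' processing notes name RMA without a version. The chip definition is not given in the sources read. RMA corrects background and summarises probes, and it compresses low signals, so folds of dim genes are understated. The log2 of each intensity was taken with no pseudocount. After removal of 64 control sets from 45101 probe sets, 34945 had 1 gene symbol in the platform annotation, 932 several and 9160 none or no entry. The probe set with the highest mean stood for a gene, giving 18193 genes.

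The test was limma (version 3.58.1, under R 4.3.3, tables read with the package data.table, version 1.17.8). The functions lmFit and eBayes were run on 4 group means over all 8 arrays and 4 residual degrees of freedom, two-sided, with Benjamini-Hochberg adjustment over all genes and a threshold of 0.05. The smallest p of an exact permutation test with 2 arrays a group is 0.333. The 8 genes, the gene lists and the tests were chosen with earlier results of these data known, so counts on lists are no independent evidence. The text names the 8 genes, Sirt1, identity markers, up to 4 passing genes per list, a set of paralogs, and of the 3 genes most like each member the closest. Cd200r2 had no gene row. Chromosomal neighbours, genes at the edge of the choice, Dgat2, Nrp1, Fabp4, Col3a1, Dcn, BC018473, Vamp4, Vamp5, Hdc, Mcpt8, the other genes like a member and the passing neutrophil genes were named after their values were seen.

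The shared codes pair EPZ4777 with DMSO arrays in the titles. Deviations from the group mean correlated within a code at 0.378 for shSirt1 and 0.293 for shLUC. Between the unrelated codes A4 and A1 they correlated at 0.401 in EPZ4777 and 0.0402 in DMSO. With 2 arrays per group the deviations within a group are exact opposites, so the sign between unrelated codes depends on the pair taken. The pairing rests on the titles, and the fit that blocks on the code had 2 residual degrees of freedom. On simulated data (10 draws over 18193 genes, 200 changed) changes of 1, 2 and 3 log2 were found in 60.2%, 92.6% and 96.2% of cases for the shLUC comparison, with 5.19% of calls false. For cells labelled shSirt1 these were 65%, 92% and 97%, with 5.4% false. The simulated noise was independent between genes and arrays, with no effect of the code and no array that stood apart. These shares therefore need not hold for the real arrays. Alternatives were other ways to combine probe sets, dim genes left out, quantile normalization, median centring, a variance trend, robust variance, a fit of the compared arrays alone, the code as block, log2(intensity + 16) and each array left out. Upstream sequences came from RefSeq on GRCm38.p6.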

Additional observations from a re-analysis of the deposited data

How the results depend on the processing

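No alternative reversed a difference of any of the 8 genes. The tested differences kept their side of the threshold in 77 of 87 settings with no array left out, with differences between 0.67 and 2.98 log2, and in 45 of 80 settings with arrays left out, with differences between 1.35 and 3.92 log2. The single rise in cells labelled shSirt1 became 0 with every probe set by itself, with only the 4 arrays compared and with log2(intensity + 16), became 2 with the code as a fixed or a random replicate block, and was 0 to 1 with an array left out. The 6 rises in shLUC cells numbered 4 to 6 with no array left out and 0 to 6 with an array left out: 0 without either DMSO array of shLUC cells, and 1 without D11 in EPZ4777. Over all genes, 39 rose in cells labelled shSirt1, and 0 did with only the 4 arrays compared, 239 with the fixed replicate block, 266 with the random one, 0 with log2(intensity + 16), 0 to 75 with an array left out and 7 without both arrays of A1. In shLUC cells 295 rose, and 491 did with every probe set by itself, 493 with dim genes left out, 193 with only the 4 arrays compared, 660 with the fixed replicate block, 999 with the random one, and 0 to 503 with an array left out. Beyond the changed number of arrays, probe sets or degrees of freedom in these settings, the cause was not tested. The replicate block changed no call of the 8 genes other than that of Nrep. Leaving out dim genes removed Cldn1, which then had no value. Averaging the probe sets of a gene lowered the difference in cells labelled shSirt1 to 1.31 log2 for Cldn1, 1.56 for Pknox2, 1.56 for Stx3 and 1.91 for Plxnc1, and in shLUC cells to 0.67 for Cldn1, 1.44 for Pknox2, 1.78 for Stx3 and 1.74 for Plxnc1. The settings that left out both arrays of A1 or of A5, and the counts over all genes, were added after seeing the data. With 2 arrays per group, leaving out 1 array changed many calls. Such a fit takes its spread only from the groups that keep 2 arrays.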

Other observations

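The genes next to the 8 on their chromosomes were read out as well, taking 2 measured genes on each side. Of these 32 neighbours none passed in cells labelled shSirt1, and 1 rose and 1 fell in shLUC cells, with median differences of 0.070 log2 in cells labelled shSirt1 and -0.033 log2 in shLUC cells. The neighbour that rose was Cd200r1, beside Cd200r4 on chromosome 16. The one that fell was Mrpl16, a mitochondrial ribosomal protein gene beside Stx3 on chromosome 19, at -0.83 log2 (limma adjusted p = 0.0346). Cldn16, the claudin beside Cldn1, differed by 0.12 log2 in cells labelled shSirt1 and -0.050 log2 in shLUC cells, and Trp63, beyond P3h2 on the other side, by 0.10 and -0.11 log2. Socs2, near Plxnc1 on chromosome 10 and a feedback inhibitor of cytokine signalling, differed by 0.21 log2 in cells labelled shSirt1 and -0.38 log2 in shLUC cells, and neither passed.

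Among the genes most like the 8 over the arrays, and picked for that likeness, several passed in both arms. Upp1, which splits uridine, stood close to Mogat2 and rose by 2.20 log2 in cells labelled shSirt1 and 2.34 log2 in shLUC cells. Inhba, close to Cldn1, rose by 3.09 log2 in cells labelled shSirt1 and 2.23 log2 in shLUC cells. Aoah, an enzyme of phagocytes that inactivates endotoxin, stood close to Pknox2 and rose by 1.19 log2 in cells labelled shSirt1 and 1.02 log2 in shLUC cells. The 3 genes most like Nrep, a likeness for which they were chosen on these arrays, did not pass in cells labelled shSirt1, with limma adjusted p-values of 0.158 for Hpse, 0.209 for Nkg7 and 0.155 for Slc32a1. With the code as a block these were 0.0582, 0.0121 and 0.00849. In shLUC cells Hpse and Slc32a1 rose (adjusted p = 0.0486 and 0.0456) and Nkg7, a granule protein of cytotoxic cells, did not pass (adjusted p = 0.113, and 0.0127 with the code as a block).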
